A study of Rattus norvegicus with 44 samples.

Results

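Rat cortex in the core of an infarct was profiled at 24 h and at 3 d of permanent occlusion of the middle cerebral artery (pMCAO), and the direct change between these times inside the dying tissue was tested over all genes. The 8 core arrays comprise pools 1 to 4 (24 h) and pools 9 to 12 (3 d), 4 arrays each, and were taken from a series of 44 arrays in 11 groups of 4 by their labels for brain region, time and treatment. The other groups were the periinfarct area and the contralateral cortex of the same operated animals, both hemispheres of sham-operated animals at each time, and the ipsilateral side of healthy animals. All animals were adult Sprague-Dawley rats. Operated rats were under ketamine, diazepam and atropine with meloxicam, a branch of the right middle cerebral artery was ligated through a craniotomy, and sham-operated rats had the same surgery without an infarct, while healthy rats had no operation. The methods state that both common carotid arteries were also closed for a limited time, so that the contralateral cortex had reduced flow as well, and each array held RNA pooled from 3 rats, so that the spread between arrays is a spread between pools. Different rats were killed at the 2 times.

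The core of an infarct is the territory whose blood flow stays too low to keep cells alive. In the hours after occlusion surviving cells there make stress proteins, such as the heat shock chaperones that hold unfolded proteins, and the products of immediate early genes. Over the following days microglia and monocyte-derived macrophages enter or expand, clear dead cells and myelin through lysosomes, export the lipid they have eaten, and fibroblast-like cells of the vessels and meninges lay down collagen.

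From 24 h to 3 d the core gained transcripts of mitosis, of macrophages and their lysosomes, of complement and major histocompatibility complex (MHC) class II, of CD8 and of fibrillar collagen, and lost transcripts of several heat shock proteins, immediate early genes, several trophic factors, interleukin-6 and the chemokines CXCL2 and CCL20. Calls for immediate early genes, interleukin-6 and CCL20 depended on particular pools or on the background correction, as given below. RNA was measured on one-colour oligonucleotide arrays, and every level below is a quantile-normalised log2 signal of 1 probe, comparable between arrays but not between genes. Each gene was represented by its tested probe with the highest mean signal. A gene was called changed where the limma fit gave a Benjamini-Hochberg adjusted p below 0.05 and the groups differed at least 2-fold. Of 12096 genes tested, 12.1% were called higher and 4.37% lower at 3 d (1461 and 529 genes), with a median log2 change over all of them of 0.0022. These shares are the ones to set beside the list counts below. Of 30538 probes, 8.74% were called higher and 5.49% lower (2668 and 1678), and the core arrays of the 2 times did not overlap for 3423 of those 4346 probes, against 22.1% of all tested probes. Changes are given below as log2 of 3 d over 24 h with the standard error of the fit, which used all 44 arrays, and adjusted p values are those of limma over all 30538 probes. Array values are listed in the order of pools 1, 2, 3 and 4 at 24 h and pools 9, 10, 11 and 12 at 3 d.

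The core arrays were not equally alike. Pool 11 at 3 d correlated over all tested probes at 0.95 to 0.953 with the other 3 d arrays and at 0.945 to 0.957 with the 24 h arrays, whereas the other 3 d arrays correlated with the 24 h arrays at 0.915 to 0.946. Leaving out pool 11 raised the number of called probes from 4346 to 5687, and leaving out pool 9 lowered it to 3500. At 24 h, pools 3 and 4 stood above pools 1 and 2 for immediate early genes and several trophic factors. The median SD over genes was 0.28 at 24 h and 0.43 at 3 d. All 44 arrays of the series came from 11 slides, and slide 1 alone held core arrays of both times, with pool 1 at 24 h and pool 9 at 3 d. On that slide 1458 of the 1461 genes called higher and 517 of the 529 called lower differed in the same direction, and 1383 and 415 of them by at least 2-fold, values for which there is no test. Both arrays also took part in the calls, so that this agreement is in part built in and cannot serve as a check for slide effects. With slide as a fixed block in the fit, 4798 probes were called. Because these are bulk tissue samples, a change in the number of cells of a type and a change in RNA per cell cannot be told apart. The labelled tissue carried cortical markers: all 26 neuronal markers tested, among them Slc17a7 and Snap25, were well above background on every core array.

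Macrophage and microglial transcripts rose broadly. Of 22 listed markers 21 were tested, 19 rose and none fell, with a median log2 change of 2.35 (slide 1, 2.73). The mean signal of the list was 8.02 to 8.21 on the 24 h arrays and 9.86 to 10.75 on the 3 d arrays, against 7.27 to 7.45 on healthy arrays. The groups did not overlap. Single markers differed at 24 h, when 8 were called above healthy cortex and 3 below it, beside 7.4% and 6.66% of all genes. Cd68, a lysosomal membrane protein of phagocytes, read 9.50, 9.40, 9.35 and 9.20 at 24 h and 13.89, 13.81, 12.29 and 13.55 at 3 d. All 3 d arrays lay above all 24 h arrays, pool 11 being the lowest of the 3 d arrays, and the change was 4.03 ± 0.52 (adjusted p = 2.1e-07), a 16.3-fold rise. Trem2, a lipid-sensing receptor of microglia and macrophages, read 11.41, 11.34, 11.28 and 10.83 at 24 h and 14.92, 14.71, 14.05 and 14.87 at 3 d, a rise of 3.42 ± 0.30 (adjusted p = 1.5e-10). Its 24 h mean differed from the healthy mean by only 0.02 (adjusted p = 0.98), so that the fitted rise above healthy cortex at 3 d, 3.44, equalled the rise since 24 h to within 0.02.

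**Figure D1:**
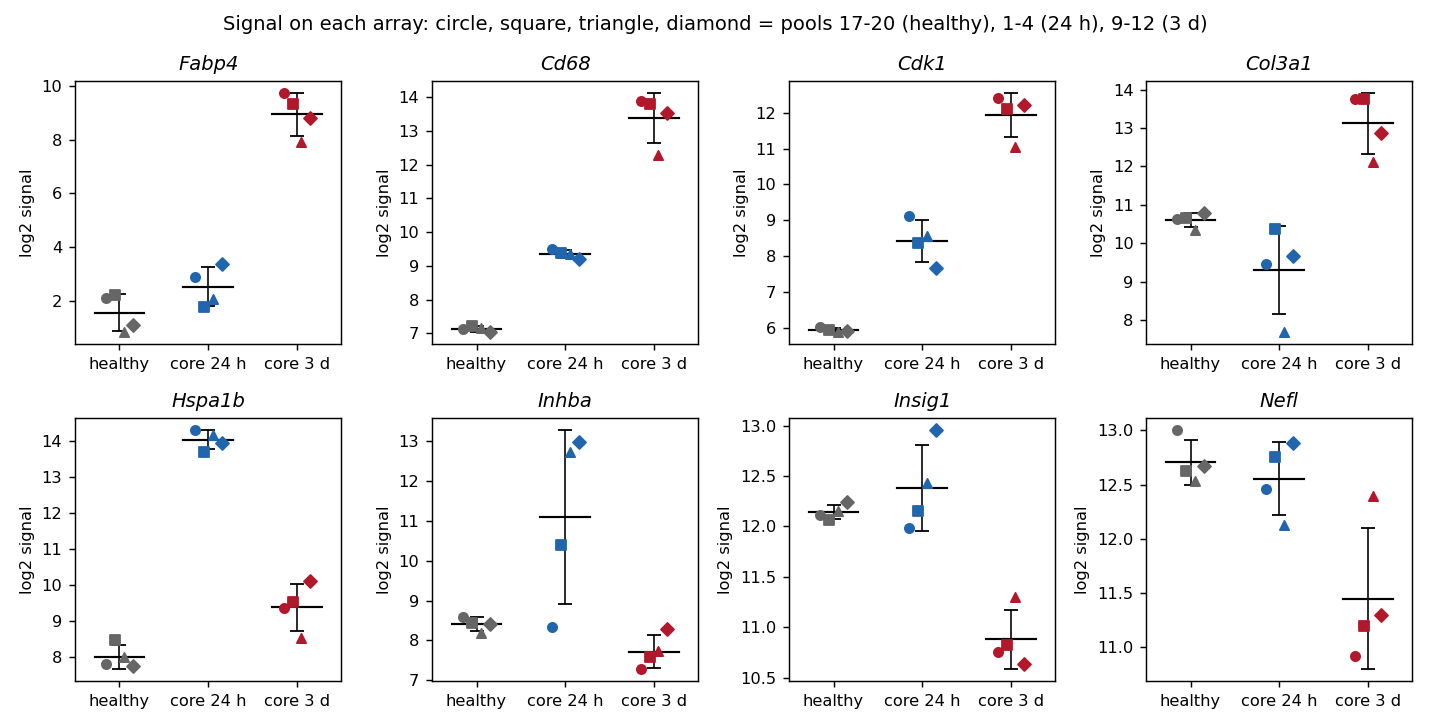
Quantile-normalised log2 signal (y axis) of 8 genes on each healthy, 24 h core and 3 d core array (x axis), with 1 point per array, symbols for the pools within a group, and the mean with its SD over 4 arrays. Fabp4, Cd68, Cdk1 and Col3a1 lie higher on all 3 d arrays than on all 24 h arrays, Hspa1b, Inhba and Insig1 lie lower, and the 3 d values of Nefl overlap those at 24 h through pool 11.

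Markers of resident microglia and of blood-derived cells both rose. P2ry12, the purinergic receptor of surveying microglia, read 9.88, 9.84, 9.19 and 9.12 at 24 h and 12.46, 11.86, 12.27 and 12.18 at 3 d. Here pool 11 lay within the other 3 d arrays, and the change was 2.69 ± 0.30 (adjusted p = 1.3e-08). At 3 d it exceeded healthy cortex by only 1.96, since its 24 h mean lay below the healthy mean. P2ry13, a related receptor, was well above background on no 24 h array and on every 3 d array, and rose at least 7.36-fold. Ccr2, the receptor that draws monocytes from blood, rose by 2.54, and Mrc1, the mannose receptor of perivascular and repair-associated macrophages, rose from 6.32 to 9.01 (2.69 ± 0.38) with 10.08 on pools 9 and 10 but 7.81 and 8.06 on pools 11 and 12. The 2 markers without a call were Cd14 and Fcgr2b, the lipopolysaccharide co-receptor and an inhibitory antibody receptor. Both already stood far above healthy cortex at 24 h, by 4.89 and 2.80, and changed by 0.25 ± 0.53 (adjusted p = 0.77) and 0.71 ± 0.35 (adjusted p = 0.12). Siglec1, a sialic acid receptor of macrophages, read 0.59, 0.63, 1.17 and 0.60 at 24 h, not well above background on any array, and 6.98, 6.33, 5.65 and 5.25 at 3 d. The rise was at least 10.1-fold.

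Genes for taking up, carrying and exporting lipid rose with the phagocyte markers, 14 of 21 tested (23 listed), with 1 called lower and a median of 1.36 (slide 1, 1.71). Fabp4, a fatty acid carrier of macrophages and fat cells, had the largest fitted increase of the genes called with non-overlapping arrays. It read 2.88, 1.78, 2.06 and 3.38 at 24 h, not well above background, and 9.74, 9.32, 7.90 and 8.80 at 3 d, an increase of at least 66.3-fold (fitted change 6.42 ± 0.70, adjusted p = 1e-08). Apoc1, a lipoprotein component, read 8.92, 8.80, 8.86 and 8.53 at 24 h and 13.96, 13.75, 12.62 and 13.75 at 3 d, a 26.8-fold rise (4.75 ± 0.33, adjusted p = 9.9e-13), from a 24 h mean of 8.78 that was not above the healthy values of 9.34 to 9.57. Abca1, the cholesterol exporter, rose by 2.80 ± 0.31, Soat1, which esterifies cholesterol for storage, by 2.31, Cd36, a scavenger receptor, by 2.74 ± 0.60, and Gpnmb, a glycoprotein of lipid-laden macrophages, by 3.03 ± 0.57. Pparg, a nuclear receptor of lipid handling, was called lower (-1.01 ± 0.35, adjusted p = 0.023), but its values of 2.64 to 3.91 and 1.50 to 2.85 overlapped, no 3 d array was well above background, and the call was lost under several other settings, among them leaving out either pool 3 or pool 4 at 24 h. Spp1, which encodes osteopontin, and the scavenger receptor Msr1 were far above healthy cortex already at 24 h, by 9.63 and 4.92, and their changes of 1.78 ± 1.00 (adjusted p = 0.18) and 1.04 ± 0.67 (adjusted p = 0.25) were not called.

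Lysosomal genes followed, 19 of 29 tested (32 listed) rising and none falling, with a median of 1.51 (slide 1, 1.90). The mean of the list lay 0.09 to 0.28 above the healthy mean on the 24 h arrays and 1.32 to 2.12 above it on the 3 d arrays. Called above healthy cortex were 4 members at 24 h, beside 7.4% of all genes, and 22 at 3 d, beside 15.7%. Grn, the precursor of granulins, read 11.60, 11.62, 11.54 and 11.31 at 24 h and 14.63, 14.17, 13.74 and 13.99 at 3 d (2.62 ± 0.27, adjusted p = 4.9e-09). Npc2, which moves cholesterol out of lysosomes, rose 5.99-fold and Ctsc, a protease that activates granule enzymes, 5.83-fold. Gusb, beta-glucuronidase, rose by 2.54 ± 0.29, to 8.29 and 7.83 on pools 9 and 10 and to 6.57 on pools 11 and 12. The largest change in the list belonged to Atp6v0d2, a subunit of the macrophage and osteoclast proton pump, which read 2.48, 2.67, 3.52 and 3.55 at 24 h and 6.87, 7.27, 5.30 and 5.12 at 3 d (3.08 ± 0.58). Ctsb, Lamp1 and Psap, genes of the same organelle, changed by 0.85, 0.86 and 0.74 and stayed under the 2-fold limit.

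Mitosis genes were the other large gain. Of 30 mitosis genes listed 26 were tested and all 26 rose, with a median of 3.21 (slide 1, 3.18), beside 12.1% of all genes called higher. The mean of the list stood 0.53 to 1.54 above the healthy mean at 24 h and 3.34 to 4.72 above it at 3 d. Cdk1, the kinase that starts mitosis, read 9.10, 8.36, 8.56 and 7.67 at 24 h and 12.40, 12.11, 11.04 and 12.21 at 3 d, against 5.88 to 6.03 in healthy cortex. It had thus risen 2.49 above healthy cortex by 24 h (adjusted p = 0.0051) and rose a further 3.51 ± 0.67 (adjusted p = 9.4e-05). Ccnb2, cyclin B2, showed no such early rise, with 4.46, 3.65, 3.78 and 3.55 at 24 h beside a healthy range of 3.99 to 4.39, and reached 8.86, 8.43, 7.51 and 7.97 at 3 d (4.33 ± 0.45, adjusted p = 4.6e-09). Cenpf, a kinetochore protein, was not well above background on any 24 h or healthy array, was so on all 3 d arrays, and rose at least 12.7-fold. The normexp background correction described below gave it a smaller log2 rise of 1.17. Pimreg and Knstrn, which act at the metaphase transition and at the spindle and were not on the list, rose by 5.18 ± 0.75 and 4.49 ± 0.77.

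Genes of DNA synthesis rose, some by less than 2-fold. Of 28 listed 25 were tested, 18 were called higher and 7 were not called, with a median of 1.50 (slide 1, 2.00). At an adjusted p below 0.05 alone, 24 of the 25 were higher, as were 4593 of 30538 probes. Rrm2, which makes deoxynucleotides, read 5.36, 4.72, 5.43 and 4.91 at 24 h and 9.41, 8.98, 7.83 and 8.73 at 3 d (3.63 ± 0.61, adjusted p = 1.5e-05), and Tk1, thymidine kinase, rose by 2.60 ± 0.44. The sliding clamp gene Pcna read 10.07, 10.09, 10.17 and 10.13 at 24 h and 11.36, 11.03, 10.43 and 10.89 at 3 d. These arrays did not overlap, but the difference of 0.81 ± 0.19 (adjusted p = 0.00092) was under 2-fold, and Pcna had been above healthy cortex by 0.79 already at 24 h. Mcm7 and Mcm4, subunits of the replicative helicase, changed by 0.96 ± 0.18 (adjusted p = 9.3e-05) and 0.30 ± 0.35 (adjusted p = 0.57).

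The promoters of 3 mitosis genes are shown because genes of this list rose together and because CCAAT boxes and the cell cycle homology region TTTGAA are the elements best known from such promoters. Each line gives the 250 bases before the transcription start from RefSeq (rat build GRCr8), 5′ to 3′ on the gene's strand, with every CCAAT and TTTGAA in capitals in either orientation (ATTGG and TTCAAA being the reverse complements). The windows are Cdk1 at chr20:19265043-19265292 (plus strand), Ccnb2 at chr8:79981659-79981908 (minus strand) and Top2a at chr10:84473094-84473343 (minus strand).
Cdk1: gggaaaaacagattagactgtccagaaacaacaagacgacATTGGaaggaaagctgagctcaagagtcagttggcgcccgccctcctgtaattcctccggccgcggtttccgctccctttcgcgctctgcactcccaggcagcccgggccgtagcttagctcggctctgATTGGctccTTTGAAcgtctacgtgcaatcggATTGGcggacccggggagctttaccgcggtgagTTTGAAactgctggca
Ccnb2: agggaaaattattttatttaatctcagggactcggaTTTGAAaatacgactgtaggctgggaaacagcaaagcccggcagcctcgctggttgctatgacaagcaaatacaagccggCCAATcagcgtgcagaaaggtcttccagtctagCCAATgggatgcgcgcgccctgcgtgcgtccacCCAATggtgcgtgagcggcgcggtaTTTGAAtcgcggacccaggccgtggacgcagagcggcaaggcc
Top2a: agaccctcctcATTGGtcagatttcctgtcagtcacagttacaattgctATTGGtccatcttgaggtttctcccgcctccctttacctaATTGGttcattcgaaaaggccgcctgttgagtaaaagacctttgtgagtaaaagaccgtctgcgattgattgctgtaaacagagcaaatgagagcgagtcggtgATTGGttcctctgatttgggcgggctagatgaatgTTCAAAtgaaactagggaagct
Each window holds 5 matches. The TTTGAA nearest the start begins 16 bases before it in Cdk1, 43 in Ccnb2 and 22 in Top2a, and the nearest CCAAT at 49, 68 and 57 bases. Of 24 list members with a promoter entry, 17 (70.8%) held CCAAT on either strand and 10 (41.7%) held TTTGAA, against 34.0% and 16.2% of 33469 promoters of the same length, and matches of the 2 motifs can share at most 1 end letter. Of these members 20 were tested and called higher, 14 of them with CCAAT and 9 with TTTGAA, and the rest had no tested probe. A match is a string of letters in a window, and whether it is used was not measured.

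Humoral and antigen-presenting genes rose as well. Among complement genes 14 of 19 tested (23 listed) rose and none fell, with a median of 1.61 (slide 1, 2.34). C6, a component of the membrane attack complex, read 3.93, 4.93, 3.69 and 4.09 at 24 h and 8.84, 8.93, 6.54 and 7.21 at 3 d (3.72 ± 0.57, adjusted p = 4.4e-06). At 24 h its values lay around the healthy range of 3.35 to 4.11. Cfd, the protease that starts the alternative pathway, rose by 2.99 ± 0.39 and the C5a receptor C5ar1 by 2.61 ± 0.43. The membrane inhibitors Cd55 and Cd46 changed by -0.35 and -0.65 without a call.

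All 9 tested MHC class II genes (11 listed) rose, with a median of 2.53 (slide 1, 3.39). Cd74, the invariant chain, read 9.76, 10.07, 10.26 and 9.87 at 24 h and 13.18, 13.14, 11.80 and 13.09 at 3 d (2.81 ± 0.42, adjusted p = 3.1e-06). Pool 11 was the low 3 d array for Cd74 and for RT1-Da, a class II alpha chain (3.45 ± 0.49), yet lay above every 24 h array. Ciita, the coactivator that switches these genes on, rose by 2.12. Fewer interferon-stimulated genes were called: 6 of 26 tested (27 listed) rose with a median of 0.50, and 9 rose without pool 11 but 3 without pool 9. Psmb8 and Psmb9, subunits of the immunoproteasome, rose by 1.48 ± 0.30 and 1.37 ± 0.31, while Isg15, a ubiquitin-like protein and a standard readout of interferon, stayed at 9.81 to 10.33 at 24 h and 9.50 to 10.21 at 3 d (-0.25 ± 0.34, adjusted p = 0.64).

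CD8 transcripts showed some of the steepest gains. Cd8a read 3.49, 3.01, 3.01 and 2.37 at 24 h and 9.95, 9.29, 8.13 and 8.26 at 3 d, against 0.61 to 0.67 in healthy cortex (5.94 ± 0.69, adjusted p = 3.6e-08). It was well above background on 2 of the 24 h arrays and all 3 d arrays, and the normexp background correction described below gave a smaller rise of 2.76. Cd8b, the partner chain, read 5.37, 4.76, 5.45 and 4.18 at 24 h and 10.70, 10.65, 8.85 and 9.80 at 3 d, a 33.3-fold rise. CD8 marks cytotoxic T cells and in rats is also found on natural killer cells and some macrophages. Cd3g, a chain of the T cell receptor complex, rose by 2.25 ± 0.51 (adjusted p = 0.00076), but Cd3d, another, changed by 1.16 ± 0.49 (adjusted p = 0.068) with 6.60 on pool 11 inside the 24 h range of 5.91 to 6.86, and Gzmb, the cytotoxic protease granzyme B, stayed at 2.04 to 3.17 at 24 h and 2.49 to 3.67 at 3 d (0.24 ± 0.47, adjusted p = 0.76). Over the whole lymphocyte list 6 of 16 tested (24 listed) rose, with a median of 0.91 (slide 1, 1.67), 5 of the 16 were well above background on no 24 h array and 2 on no 3 d array, and the count was 3 without pools 1 and 2.

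Granulocyte genes split. Of 14 neutrophil markers tested (19 listed) 3 rose and none fell, beside 12.1% and 4.37% of all genes, with a median of 0.51 (slide 1, 1.59). Fcnb, ficolin B of myeloid cells, reached 11.35, 11.39, 10.61 and 11.58 from 5.98, 5.97, 6.43 and 5.61 (5.23 ± 0.78, adjusted p = 2.7e-06), and Trem1 and Csf3r, an amplifying receptor and the receptor of the granulocyte growth factor, rose by 3.06 ± 0.68 and 2.03 ± 0.54. The call of Trem1 was lost without pools 1 and 2 (1.96, adjusted p = 0.074). In that setting 2 markers were called higher and 1 lower, while without pools 3 and 4 5 were called higher. S100a8 and S100a9, the abundant calcium-binding proteins of neutrophil cytoplasm, overlapped widely between times. S100a8 read 7.53, 6.95, 9.45 and 8.93 at 24 h and 9.35, 10.39, 6.53 and 7.94 at 3 d (0.34 ± 0.99, adjusted p = 0.85). Mmp9, the gelatinase of neutrophil granules, read 6.32 to 8.37 at 24 h and 5.94 to 7.22 at 3 d (-0.97 ± 0.40, adjusted p = 0.064).

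**Figure D2:**
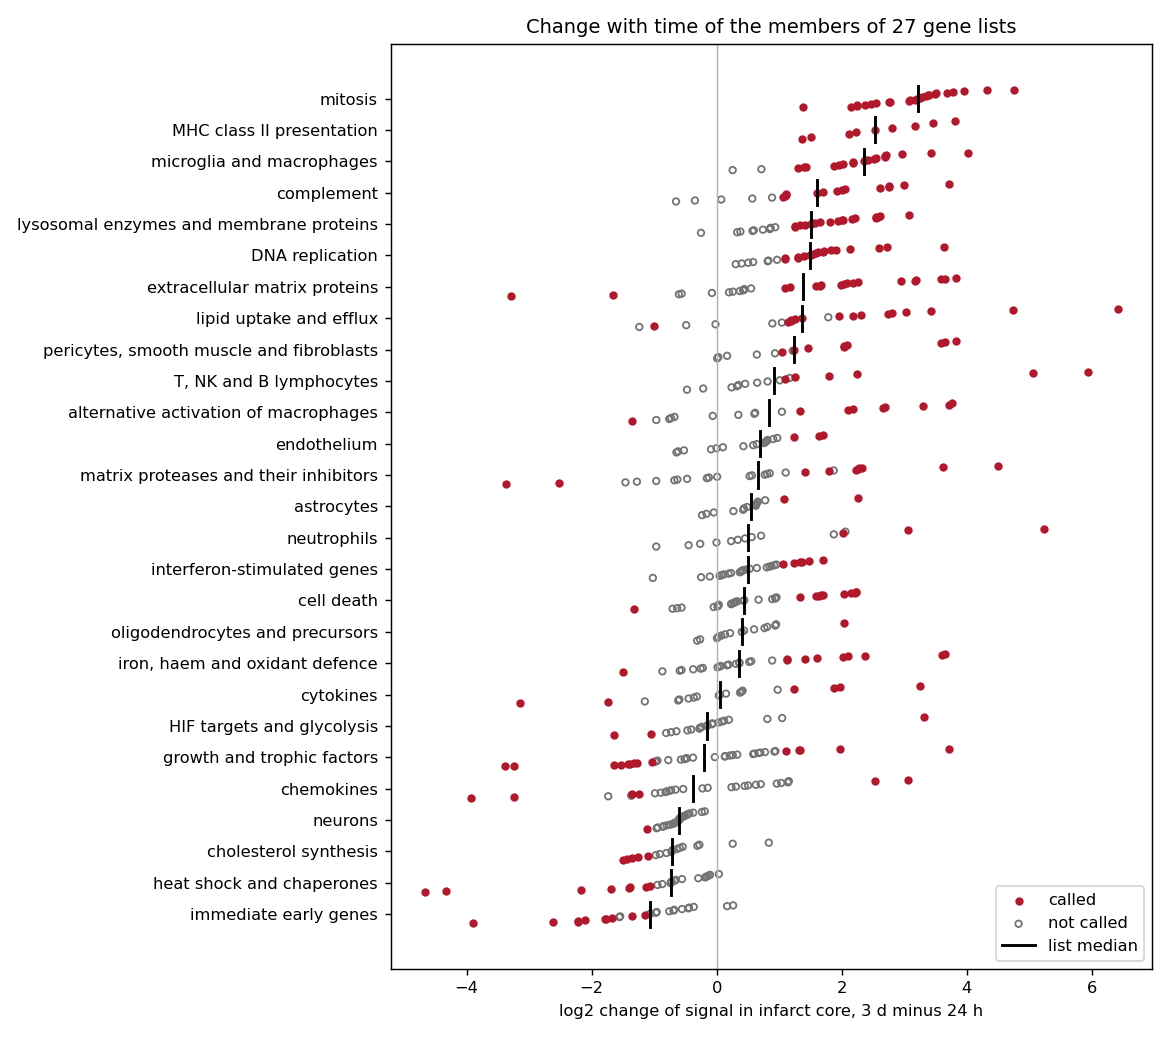
Log2 change from 24 h to 3 d in the core (x axis) of every tested member of each gene list (y axis), with 1 point per gene, called genes filled, and the list median marked. Mitosis, MHC class II and microglia and macrophage genes lie to the right of 0, heat shock and cholesterol synthesis genes mostly to the left, and chemokines and growth factors on both sides.

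Matrix genes rose, and some turned from below to above healthy cortex. Of 28 matrix proteins tested (32 listed) 16 rose and 2 fell, with a median of 1.38 (slide 1, 2.05), and 7 were called below healthy cortex at 24 h but 3 at 3 d (6.66% and 12.5% of all genes). Col3a1, a fibrillar collagen chain, read 9.46, 10.37, 7.68 and 9.67 at 24 h and 13.75, 13.75, 12.10 and 12.87 at 3 d, against 10.35 to 10.78 in healthy cortex. Its difference from healthy cortex was -1.31 at 24 h (adjusted p = 0.033) and 2.52 at 3 d (adjusted p = 3e-05), a rise of 3.82 ± 0.47 in between (adjusted p = 8.5e-08). Col1a1 took the same course, from 9.67, 10.11, 8.14 and 8.95 to 13.72, 13.66, 12.05 and 11.77 (3.58 ± 0.41), and so did Lum, a collagen-organising proteoglycan (3.64 ± 0.52). Ogn, another small proteoglycan of the meninges and vessel wall, rose by 2.95 ± 0.49 from a 24 h level below healthy cortex (-3.79), but its 3 d values of 8.36 to 9.77 did not exceed the healthy range of 9.20 to 9.86. Podnl1, a proteoglycan of the same family that was not on the list, rose at least 12.3-fold. Has1, which makes hyaluronan, moved the other way: it was 7.14 above healthy cortex at 24 h, with 7.91, 8.56, 8.45 and 9.93, and fell to 5.14, 5.27, 4.91 and 6.39 (-3.29 ± 0.76, adjusted p = 0.00091).

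Several proteases that cut matrix rose. Of 26 proteases and inhibitors tested (27 listed) 8 rose and 2 fell, beside 12.1% and 4.37% of all genes, with a median of 0.67 (slide 1, 1.17). With the normexp background correction described below 5 rose and none fell. Plau, urokinase, read 6.12, 6.13, 6.41 and 7.27 at 24 h and 10.85, 10.12, 9.53 and 9.93 at 3 d (3.63 ± 0.65, adjusted p = 4.5e-05). Mmp7, matrilysin, rose by 4.49 ± 0.95 and Mmp2, gelatinase A of mesenchymal cells, by 2.28 ± 0.24. Mmp3, stromelysin, was well above background on all 24 h arrays and on no 3 d array, and fell by at least 4.99-fold. Serpinb2, the urokinase inhibitor PAI-2, read 1.90, 3.77, 5.30 and 5.75 at 24 h and 1.55, 0.54, 0.62 and 0.54 at 3 d, a fall of at least 2.42-fold in which pools 3 and 4 carried the high 24 h values and the slide 1 pair differed by only -0.35. Timp1, a metalloprotease inhibitor, stayed high at both times, 13.34 to 15.40 and 12.55 to 14.40 (-0.63 ± 0.63, adjusted p = 0.49). Markers of pericytes, smooth muscle and fibroblasts, 4 of which are also matrix genes of the list above, rose for 9 of 15 tested (17 listed), with a median of 1.24 (slide 1, 1.82). The potassium channel genes Kcnj8 and Abcc9, which mark brain pericytes, changed by 0.01 and 0.02.

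Trophic and repair factors went in both directions. Igf1, insulin-like growth factor 1, read 9.96, 10.14, 9.98 and 10.24 at 24 h, little above the healthy range of 9.48 to 9.90, and 14.28, 14.06, 13.11 and 13.73 at 3 d (3.72 ± 0.35, adjusted p = 4.8e-10), a 13.1-fold rise. Folr2, a folate receptor of tissue macrophages, rose by 3.76 ± 0.41. Among genes linked to alternative activation of macrophages, on which Igf1, Folr2 and Mrc1 stand, 8 of 18 tested (20 listed) rose and 1, the chemokine Ccl17, fell (-1.35 ± 0.30), with a median of 0.83 (slide 1, 1.61). Arg1, arginase and the best known of them, changed by 0.61 ± 0.41 (adjusted p = 0.27), having been 2.09 above healthy cortex at 24 h. Of 36 growth and trophic factors tested (39 listed) 5 rose and 9 fell, beside 12.1% and 4.37% of all genes, with a median of -0.21 (slide 1, -0.0015). The number that rose was thus near the share over all genes. Hgf, hepatocyte growth factor, was not well above background on any 24 h array, read 3.81, 3.50, 2.99 and 2.74 on the 3 d arrays, well above background on 2 of them, and rose at least 1.45-fold. Tgfb1 rose by 1.32 ± 0.39, a call that was lost without pools 1 and 2 (1.01, adjusted p = 0.14). Vegfa, the hypoxia-inducible angiogenic factor, read 9.16, 10.00, 9.54 and 10.02 at 24 h and fell to 7.44, 7.90, 8.19 and 8.65 (-1.64 ± 0.27, adjusted p = 9.8e-06), below healthy cortex (-0.93).

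For 2 of the trophic factors that fell the 24 h arrays were far apart. Inhba, the activin A subunit, read 8.32, 10.38, 12.72 and 12.97 at 24 h and 7.28, 7.58, 7.73 and 8.29 at 3 d. The healthy range was 8.18 to 8.59, and pool 1 was thus at the healthy level while pools 3 and 4 exceeded it by over 4 units. The fitted fall of -3.38 ± 0.61 (adjusted p = 4.4e-05) became -1.63 without pools 3 and 4 (adjusted p = 0.03) and -5.13 without pools 1 and 2, and the slide 1 pair differed by -1.04. Bdnf, brain-derived neurotrophic factor, read 7.04, 7.85, 10.37 and 10.66 at 24 h and 5.38, 5.31, 7.01 and 5.22 at 3 d. The healthy range was 7.25 to 7.81. Its fall of -3.25 ± 0.55 (adjusted p = 1.9e-05) became -1.71 without pools 3 and 4 and -4.79 without pools 1 and 2, and at 3 d it stood below healthy cortex (-1.88, adjusted p = 0.005).

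Immediate early genes showed the same unevenness. Of 25 tested (25 listed) 10 fell and none rose, beside 4.37% of all genes called lower, with a median of -1.08 (slide 1, -0.56, with 6 members higher at 3 d). The mean of the list was 8.51, 8.88, 9.62 and 10.31 at 24 h and 7.94, 8.16, 8.02 and 8.08 at 3 d, against 8.32 to 8.63 in healthy cortex. Every 3 d array lay below every 24 h array and below every healthy array. A level below healthy cortex was not particular to the core. In contralateral cortex the list mean was 7.36 to 7.67 at 24 h and 7.26 to 7.95 at 3 d, below every 24 h core array too. The count of called members was 2 without pools 3 and 4 and 15 without pools 1 and 2. Arc, a synaptic protein gene switched on by activity, read 11.14, 11.75, 13.19 and 14.41 at 24 h and 9.16, 9.87, 11.63 and 10.96 at 3 d, all but 1 of these 8 below the healthy range of 13.74 to 14.04. Its fall of -2.22 ± 0.54 (adjusted p = 0.0015) was not called without pools 3 and 4 (-1.04, adjusted p = 0.18). Fos read 9.01, 9.32, 10.99 and 11.87 at 24 h and 7.84, 8.47, 7.57 and 8.46 at 3 d (-2.21 ± 0.56), and was likewise not called without pools 3 and 4 (-1.08, adjusted p = 0.2). Egr4, a zinc finger factor, kept its call without them, at -1.46 (adjusted p = 0.017) beside -2.62 ± 0.47 on all arrays. Npas4, which responds to calcium entry in neurons, read 2.75, 3.40, 6.17 and 7.74 at 24 h, was well above background on 2 of these arrays and on no 3 d array, and fell at least 4.31-fold over the group means, a call that was also lost without those pools (adjusted p = 0.11).

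**Figure D3:**
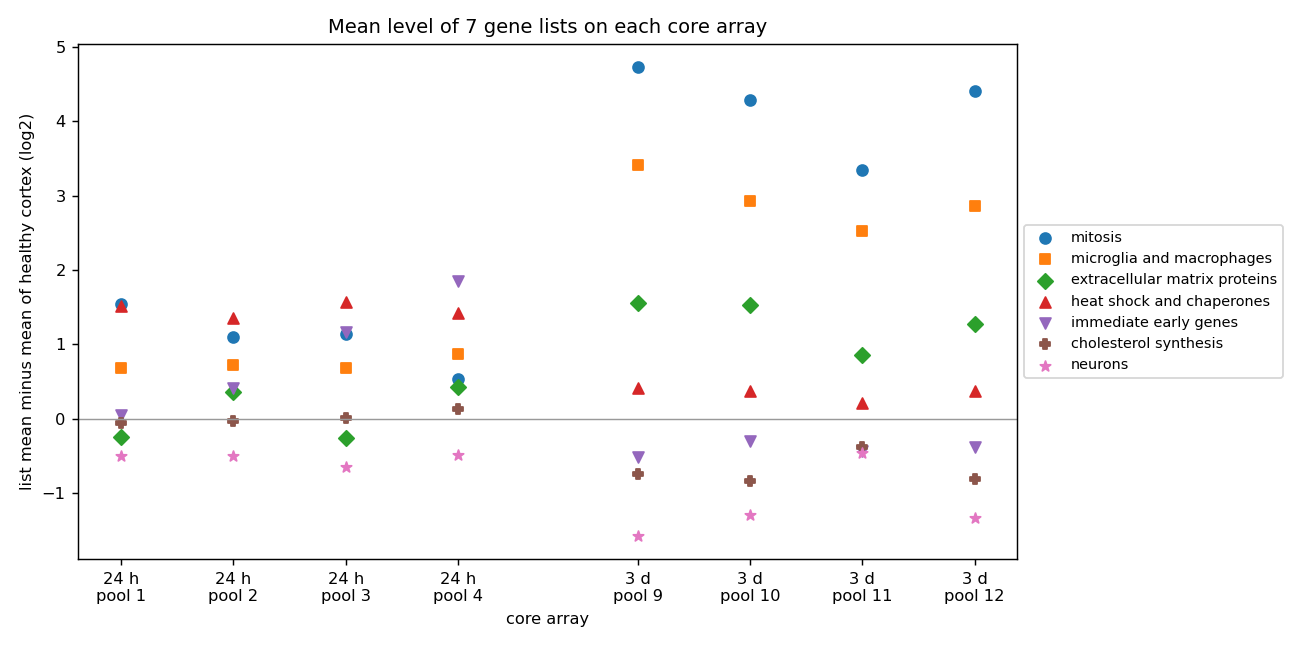
Mean log2 signal of 7 gene lists on each core array (points, by pool), minus the mean of the healthy arrays (y axis), at 24 h and 3 d (x axis). Macrophage, mitosis and matrix lists are higher on all 3 d arrays than on all 24 h arrays, heat shock and cholesterol synthesis genes lower, immediate early genes range from 0.05 to 1.86 at 24 h, and neuronal genes on pool 11 at 3 d (-0.45) lie with the 24 h arrays (-0.65 to -0.49).

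Heat shock genes fell in part, those of Hsp70 most steeply. Of 22 chaperone genes tested (24 listed) 8 fell and none rose, with a median of -0.74 (slide 1, -0.69), and 16 had an adjusted p below 0.05 in the downward direction, as did 15.4% of all genes. The mean of the list was 1.35 to 1.56 above the healthy mean at 24 h and 0.22 to 0.42 above it at 3 d. Hspa1b, inducible Hsp70, read 14.32, 13.71, 14.17 and 13.95 at 24 h and 9.35, 9.52, 8.53 and 10.10 at 3 d, against 7.74 to 8.48 in healthy cortex. It fell 25.3-fold (-4.66 ± 0.32, adjusted p = 9.9e-13) and still exceeded healthy cortex by 1.38 at 3 d (adjusted p = 0.00051). Hspa1a, its near-identical copy, fell by 4.33 ± 0.41, and signal cannot be assigned with certainty between these 2 genes. Hsph1, the Hsp110 nucleotide exchange factor, read 11.36, 11.06, 11.60 and 11.25 at 24 h and 8.85, 9.30, 9.63 and 8.81 at 3 d, crossing the healthy range of 9.77 to 10.40 from above to below (-2.17 ± 0.22, adjusted p = 2e-09). Cryab, a small heat shock protein, fell by 1.70 ± 0.21, and Dnajb1, an Hsp40 cochaperone, read 11.22, 11.11, 11.10 and 11.42 at 24 h and 10.13, 10.14, 10.37 and 9.95 at 3 d (-1.07 ± 0.19). Hspb1, Hsp27, fell by 1.41 ± 0.54 (adjusted p = 0.041) and remained 3.95 above healthy cortex, and its call was lost when any of 6 arrays was left out or slide was a fixed block. The constitutive chaperone Hspa8 stayed at 12.69 to 13.24 at 24 h and 12.40 to 13.38 at 3 d (-0.16 ± 0.29, adjusted p = 0.73).

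Promoters of 3 of these chaperones are shown because the heat shock element is the binding site of the heat shock factors that drive them. Capitals mark GAANNTTC, its core of 2 facing GAA units, which reads the same on both strands, in the 250 bases before the start from RefSeq GRCr8, 5′ to 3′ on the gene's strand. The windows are Hsph1 at chr12:10427118-10427367 (plus strand), Dnajb1 at chr19:41431142-41431391 (minus strand) and Hspb1 at chr12:26432302-26432551 (minus strand).
Hsph1: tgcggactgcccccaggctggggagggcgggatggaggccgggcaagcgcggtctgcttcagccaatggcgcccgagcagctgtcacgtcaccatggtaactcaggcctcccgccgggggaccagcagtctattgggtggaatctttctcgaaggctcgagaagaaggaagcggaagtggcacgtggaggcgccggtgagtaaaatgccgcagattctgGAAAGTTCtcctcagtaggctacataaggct
Dnajb1: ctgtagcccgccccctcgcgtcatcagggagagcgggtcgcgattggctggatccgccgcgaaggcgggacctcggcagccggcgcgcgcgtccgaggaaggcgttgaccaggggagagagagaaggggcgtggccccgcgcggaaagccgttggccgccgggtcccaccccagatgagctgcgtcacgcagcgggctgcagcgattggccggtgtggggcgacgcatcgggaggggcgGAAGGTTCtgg
Hspb1: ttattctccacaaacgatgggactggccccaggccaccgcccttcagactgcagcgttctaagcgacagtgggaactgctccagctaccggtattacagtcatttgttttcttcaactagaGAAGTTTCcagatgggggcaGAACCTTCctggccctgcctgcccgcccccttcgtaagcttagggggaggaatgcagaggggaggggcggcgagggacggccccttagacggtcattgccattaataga
The element began 31 bases before the start in Hsph1, 11 in Dnajb1, and 129 and 109 in Hspb1. It was found in 10 of 19 list members with a promoter entry (52.6%), against 7.23% of 33469 promoters, and in 4 of the 5 called members that had an entry. The window of Hspa1a did not hold these letters.

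Among secreted signals, of 30 chemokines tested (33 listed) 2 rose and 4 fell, beside 12.1% and 4.37% of all genes. The median was -0.38 over all arrays but 0.40 on slide 1. Cxcl2, a neutrophil attractant, read 7.80, 7.21, 10.62 and 9.82 at 24 h and 5.07, 5.28, 4.29 and 5.09 at 3 d (-3.93 ± 0.83, adjusted p = 0.00032). It remained 3.40 above healthy cortex. Ccl20, the ligand of CCR6, fell by 3.24 ± 0.99 (adjusted p = 0.01) with widely scattered 3 d values of 3.31, 5.24, 0.84 and 2.59, and its call was lost without pool 4 at 24 h, without pool 11 at 3 d and with slide as a fixed block. Pf4 and Ccl6, made by platelets and macrophages, rose by 3.06 ± 0.43 and 2.54 ± 0.51. Ccl2, the main monocyte attractant, was 9.13 above healthy cortex at 24 h and 8.59 at 3 d, and the difference of -0.54 ± 1.07 (adjusted p = 0.76) was not called. Among 19 cytokines tested (28 listed) 4 rose and 2 fell, with a median of 0.05 (slide 1, 0.40). Il6 was well above background on all 24 h arrays, at 3.65, 4.03, 5.80 and 6.27, and on no 3 d array, and fell at least 4.08-fold. Il18, an inflammasome product, read 8.68, 8.29, 8.30 and 8.18 at 24 h and 10.96, 10.53, 9.27 and 10.57 at 3 d (1.97 ± 0.27, adjusted p = 8.7e-07), and Csf1, a growth factor of macrophages, rose by 1.24 ± 0.27.

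Some oxidant and cell death genes rose. Of 27 iron, haem and oxidant genes tested (29 listed) 9 rose and 1 fell, beside 12.1% and 4.37% of all genes, with a median of 0.36 (slide 1, 0.50). Ncf1 and Cybb, subunits of the phagocyte oxidase, rose by 3.65 ± 0.47 and 3.60 ± 0.60, and Gpx1, a peroxide-reducing enzyme, read 12.87, 12.93, 12.93 and 12.84 at 24 h and 15.36, 15.30, 14.28 and 15.05 at 3 d (2.11 ± 0.23, adjusted p = 1e-08). Hmox1, haem oxygenase 1, was 5.24 above healthy cortex at 24 h and 5.55 at 3 d (0.31 ± 0.53, adjusted p = 0.72), whereas Srxn1, a target of the oxidant sensor NRF2, fell by 1.51 ± 0.34 back to the healthy range. Of 32 cell death genes tested (36 listed) 10 rose and 1 fell, beside the same 12.1% and 4.37%, with a median of 0.43 (slide 1, 0.79). Pycard, the inflammasome adaptor, read 9.07, 9.18, 9.09 and 9.00 at 24 h and 11.76, 11.21, 10.85 and 11.46 at 3 d, and Casp6, an executioner caspase, rose by 2.15 ± 0.22. Bax and Bcl2, which promote and prevent mitochondrial death, changed by 0.24 and 0.30 without a call, and Faslg fell by 1.32 ± 0.35.

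Few metabolic genes were called, and those of sterol synthesis all in the downward direction. Of 18 cholesterol synthesis genes tested (19 listed) 5 fell and none rose, with a median of -0.72 (slide 1, -0.73). At an adjusted p below 0.05 alone, 15 were lower (15.4% of all genes) and 1 was higher. Hmgcs1, an early enzyme of the pathway, read 13.28, 13.26, 13.30 and 13.46 at 24 h, the healthy range being 13.31 to 13.47, and 11.88, 11.90, 12.52 and 11.95 at 3 d (-1.26 ± 0.15, adjusted p = 9.5e-08). Insig1, the sterol-sensing brake on the pathway, fell from 11.99, 12.16, 12.43 and 12.96 to 10.75, 10.83, 11.30 and 10.64 (-1.50 ± 0.21), and Msmo1 and Idi1, 2 enzymes of the pathway, changed by -1.44 ± 0.19 and -1.36 ± 0.21. No member was called different from healthy cortex at 24 h. At 3 d 4 were called below it and 1 above it, beside 12.5% and 15.7% of all genes. Of 21 hypoxia and glycolysis genes tested (28 listed) 1 rose and 2 fell, with a median of -0.16 (slide 1, 0.11). The one that rose was Hk3, the hexokinase of myeloid cells (3.31), and Slc2a3, the neuronal glucose transporter, fell by 1.05, a call that was lost without pool 2, pool 9 or pool 10 (-0.92, -0.77 and -0.98) and in a fit of the core arrays alone.

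Neuronal genes were lower at 3 d by small amounts, and not on every array. Only Nefl, neurofilament light chain, of 26 tested markers (30 listed) was called, but all 26 were lower at 3 d, 18 of them with an adjusted p below 0.05 (15.4% of all genes), with a median of -0.60 (slide 1, -1.10). Nefl read 12.46, 12.75, 12.13 and 12.88 at 24 h and 10.91, 11.19, 12.39 and 11.29 at 3 d (-1.11 ± 0.25, adjusted p = 0.00063). Pool 11 alone lay inside the 24 h range, and the call was lost without pool 9 and in a fit of the core arrays alone. Snap25, a synaptic vesicle fusion protein, read 14.35, 14.62, 14.18 and 14.87 at 24 h and 13.20, 13.55, 14.65 and 13.41 at 3 d (-0.80 ± 0.21, adjusted p = 0.0037). Here too pool 11 stood with the 24 h arrays. The mean of the list was 10.90, 10.90, 10.74 and 10.91 at 24 h and 9.83, 10.11, 10.94 and 10.07 at 3 d, against 11.34 to 11.44 in healthy cortex, and 7 members were called lower without pool 11 but none without pool 9. Called below healthy cortex were 2 members at 24 h, beside 6.66% of all genes, and 14 at 3 d, beside 12.5%.

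Few markers of other resident cells were called. Of 14 astrocyte markers tested (14 listed) 2 rose, near the 12.1% of all genes called higher, with a median of 0.56 (slide 1, 0.20). These were Vim and Gja1 (the latter not called without pool 3 or pool 10). Vim, vimentin, is also made by macrophages and fibroblasts and rose by 2.25 ± 0.39, while Gfap, the astrocyte filament protein, read 10.99 to 11.37 at 24 h and 11.69 to 12.11 at 3 d (0.63 ± 0.41, adjusted p = 0.27), 3.50 above healthy cortex. Among 15 oligodendrocyte markers tested (18 listed) Pdgfra alone rose (2.03 ± 0.30), a receptor that precursors share with fibroblasts, and the list median was 0.40 (slide 1, -0.13). The myelin genes Mbp and Mog changed by 0.07 and 0.21, without a call. Of 18 endothelial markers tested (18 listed) 3 rose, near the 12.1% of all genes called higher, with a median of 0.70 (slide 1, 0.71). They were Ocln, a tight junction protein (1.70 ± 0.18, against healthy cortex -0.91 at 24 h and 0.79 at 3 d), Tie1 (1.64 ± 0.30) and Vwf (1.23 ± 0.29), whereas Pecam1 and Cdh5 changed by -0.09 and 0.43 without a call.

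Several of the steepest falls lay outside all lists. Krt25, a hair keratin gene, read 5.49, 5.99, 5.38 and 4.90 at 24 h and 0.77, 0.66, 0.83 and 0.68 at 3 d, against 1.94 to 3.72 in healthy cortex. It fell at least 5.77-fold (fitted -4.70 ± 0.41, adjusted p = 1.8e-10). F7, coagulation factor VII, and Tex21, a testis-expressed gene, were well above background on all 24 h arrays and on no 3 d or healthy array and fell at least 4.68-fold and 6.04-fold. Ptx3, a soluble pattern receptor, fell at least 9.85-fold, a call that was lost without pools 3 and 4, and Gipr, the receptor of an incretin hormone, read 6.00, 7.05, 8.62 and 8.66 at 24 h and 3.82, 3.47, 4.38 and 5.11 at 3 d (-3.39 ± 0.49). On the rising side stood Pon3, a lactonase (at least 12.7-fold), Stra6l (at least 14.3-fold), Ms4a4a of macrophages (4.86 ± 0.74) and Plbd1, a lysosomal phospholipase of myeloid cells (4.78 ± 0.55). The size of such changes in dim probes depended on the background correction. Every gene given with a fold of "at least" changed by less than that fold with normexp, among them Cenpf (1.17), Pon3 (1.21) and Stra6l (1.24). With an additive background model (normexp) and an offset of 50, 48 of the 134 genes named in the text changed by less than the stated log2 value divided by 1.5, none changed sign, and Krt25, F7 and Tex21 (-0.67, -0.60 and -0.66), Serpinb2 (-0.45), Il6 (-0.56), Mmp3 (-0.60), Npas4 (-0.80), Atp6v0d2 (0.76), Hgf (0.17), P2ry13 (0.70) and Podnl1 (0.95) stayed under the 2-fold limit, as did Pparg, Ccl20, Ccl17, Slc2a3, Srxn1, Faslg, Tgfb1, Csf3r, Cd3g and Tie1, while Fabp4 (2.72) and Siglec1 (1.06) kept it. In the lists this correction lowered the number called higher from 18 to 9 for DNA replication, from 8 to 4 for alternative activation, from 6 to 3 for interferon-stimulated genes, from 6 to 2 for lymphocytes and from 5 to 1 for growth factors.

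Of the 15 steepest falls by the same rule, 4 belonged to loci with no gene name. LOC689410, LOC686147 and LOC690782 are hypothetical proteins in the deposited annotation, and LOC363366 is described there by its likeness to the mouse RIKEN cDNA gene 1700081O22Rik. LOC689410 read 11.49, 10.58, 11.21 and 10.64 at 24 h and 6.20, 6.49, 7.39 and 6.46 at 3 d, against 6.91 to 7.34 in healthy cortex (-4.34 ± 0.28, adjusted p = 9.2e-13). LOC363366 read 12.86, 12.00, 12.48 and 12.10 at 24 h and 8.20, 8.67, 9.31 and 8.40 at 3 d (-3.72 ± 0.26, adjusted p = 1e-12), where the healthy range was 8.99 to 9.31. Other probes carried the same description as LOC363366, and this led to a set formed after these values were seen, of all 53 tested probes described by 1700081O22Rik (24 probes), by the RIKEN cDNA gene 4933431D05Rik (18 probes) or as a spermatogenesis associated glutamate (E)-rich protein (11 probes). The hypothetical proteins above are not in it. Of the 53 probes 43 were called lower at 3 d, beside 5.49% of all probes, and none higher, the changes ran from -3.72 to 0.10 with a median of -2.24, and 38 were called above healthy cortex at 24 h, beside 6.05% of all probes. Such loci can occur in near-identical copies whose transcripts share probes, so that the 53 cannot be taken as independent. The mean of the set was 9.87 to 10.9 on 24 h core arrays and 8.07 to 8.59 on 3 d core arrays. It was 10.1 to 11.7 and 8.18 to 8.78 in the periinfarct area and 8.04 to 8.81 in contralateral cortex, with 8.49 to 8.70 in healthy cortex.

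**Figure D4:**
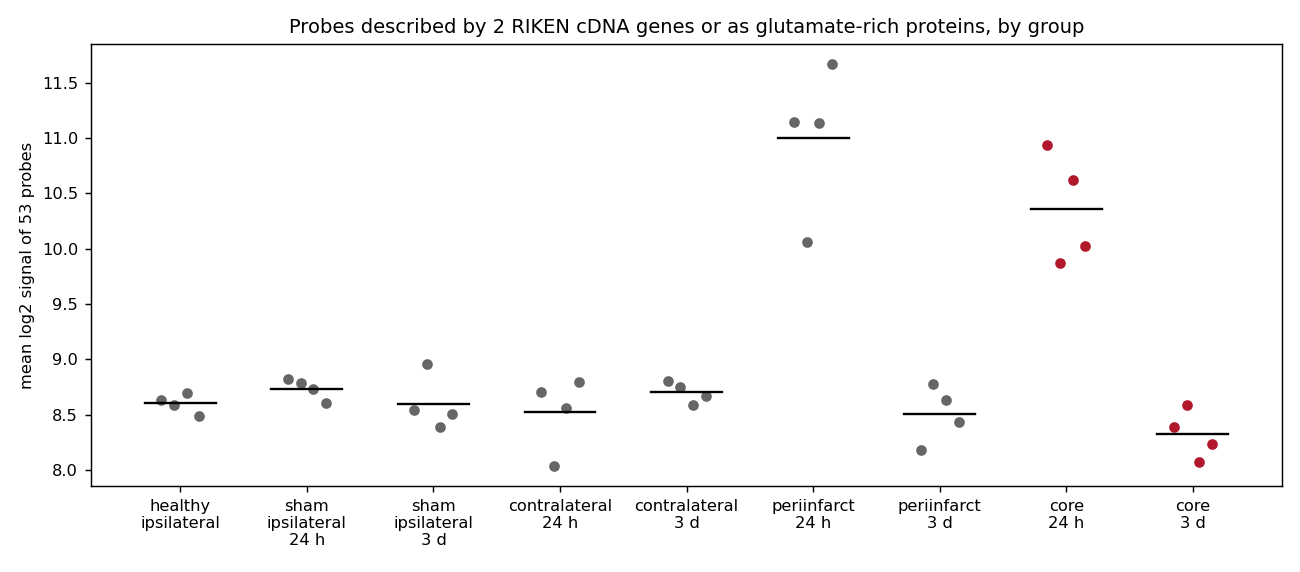
Mean log2 signal of the 53 probes described by the 2 RIKEN cDNA genes or as glutamate-rich proteins (y axis) on each array of 9 groups (x axis), with 1 point per array. Core and periinfarct arrays at 24 h lie at 9.87 to 11.7, and the groups at 3 d, contralateral, sham-operated and healthy arrays at 8.04 to 8.95.

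Most changes ran away from healthy cortex, not back to it, among the genes that rose. Of the 1461 genes called higher at 3 d, 805 (55.1%) were not called different from healthy cortex at 24 h and were above it at 3 d, 278 (19%) were above it at both times, 136 (9.31%) were below it at 24 h and not called different at 3 d, and 215 (14.7%) were not called different at either time. A further 16 (1.1%), among them Col1a1 and Col3a1, went from below to above. The 529 genes that fell were divided otherwise: 147 (27.8%) were above healthy cortex at 24 h and not called different at 3 d, 183 (34.6%) were not called at 24 h and below it at 3 d, 170 (32.1%) were not called at either time, and 18 (3.4%) stayed above at both times. Both shares use the same healthy arrays and the same core arrays as the comparison that chose the genes, and are given as a description.

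The contralateral and sham-operated arrays gave no such calls. Between 24 h and 3 d no probe was called in the contralateral cortex and none in the ipsilateral cortex of sham-operated rats (0 of 30538 in each by limma, with 1152 and 2862 at an unadjusted p below 0.05). The change in the core differed from that in the contralateral cortex for 9.59% of probes, 6.77% more positive and 2.82% more negative, by the test of the difference itself. Among the lists, this difference was called for 20 of 26 mitosis genes, 18 of 29 lysosomal genes, 15 of 28 matrix genes, 14 of 21 macrophage markers, each more positive in the core beside 9.81% of all genes, and for 8 of 25 immediate early genes and 6 of 22 chaperones, more negative beside 2.77%.

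In the periinfarct area 5.75% of probes changed between the times, and the core was set against it gene by gene. Heat shock genes fell there too: 13 of 22 were called lower, beside 2.48% of all genes, with a median of -1.35, and Hspa1b changed by -6.09, so that its change in the core was the smaller by 1.43 (adjusted p = 0.043). Mitosis genes rose in both areas, 26 of 26 in the core and 23 of 26 in the periinfarct area (median 2.07, beside 4.57% of all genes called higher there), and the difference was called for none. The difference of the changes was called for 5.02% of probes, and more positive in the core for 8 of 21 lipid genes, 8 of 28 matrix genes, 7 of 19 complement genes and 6 of 21 macrophage markers, against 2.87% of all genes. Fabp4 changed by 2.51 in the periinfarct area, 3.90 less than in the core (adjusted p = 0.02), Col3a1 by 1.12, 2.70 less (adjusted p = 0.017), Apoc1 by 2.36, 2.39 less (adjusted p = 0.013), and C5ar1 by 0.02, 2.58 less (adjusted p = 0.015). P2ry12, by contrast, rose there by 2.57, and the difference of 0.12 was not called (adjusted p = 0.89). More negative in the core were 8 of 26 neuronal markers, against 3.03% of all genes, with Snap25 changing by 0.28 in the periinfarct area and the difference being -1.08 (adjusted p = 0.028). These differences leaned on single arrays: of 30 genes named in the text with a called difference, none kept its call without pool 9 of the 3 d core (adjusted p 0.0513 to 0.139), none when the 4 groups were fitted alone (0.293 to 0.317) and 14 with slide as a fixed block, while all 30 kept their sign in each. Pool 11 was also the low array of the 3 d periinfarct group, with a mitosis list mean of 5.02 beside 8.12 to 8.59 on the other 3 arrays. Scaling each array to its 75th percentile moved the share of periinfarct calls that were increases from 59.3% to 36.4%, and the share of called core-periinfarct differences that were positive from 37.5% to 53%.

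**Figure D5:**
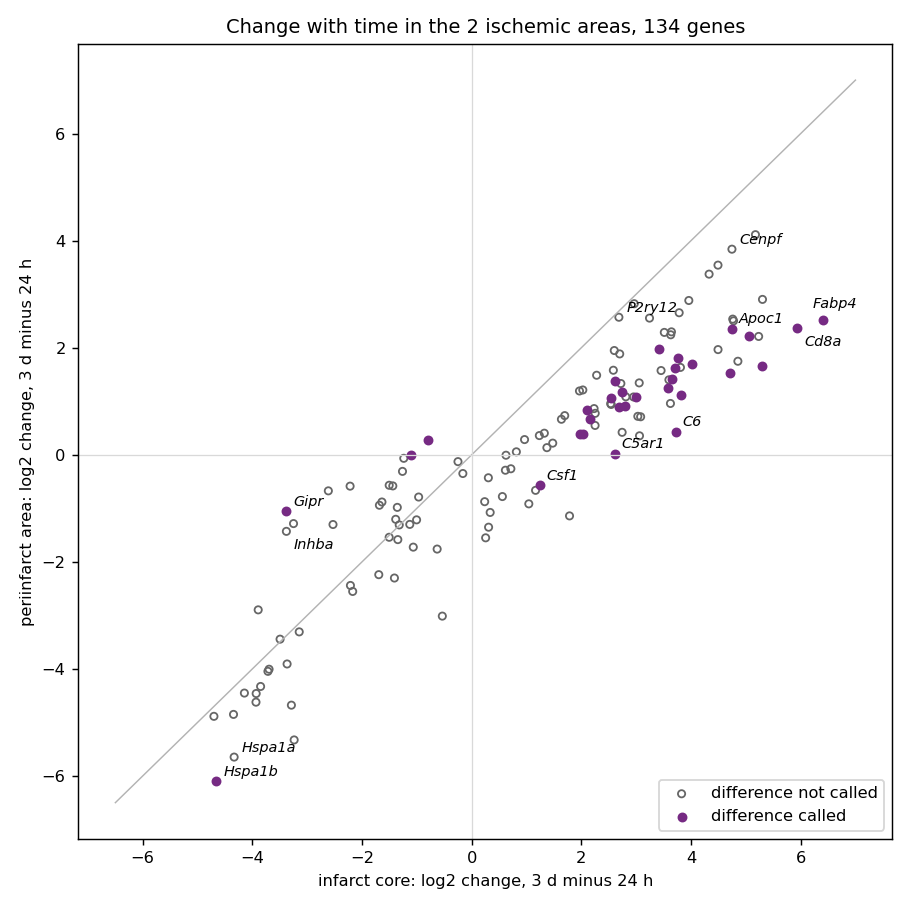
Log2 change from 24 h to 3 d in the core (x axis) against that in the periinfarct area (y axis) for 134 named genes, with 1 point per gene and the 30 genes with a called difference in purple. Genes below the diagonal changed more positively in the core, Fabp4 by 3.90, and Hspa1b lies far down on both axes.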

How the data were processed

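Total RNA from pools of 3 rats was labelled with Cy3 and hybridised to 4x44K whole rat genome arrays. The labels name a miRNA labelling kit and the methods a one-colour gene expression protocol. The deposited scanner files hold intensity values (processed signals) from Agilent Feature Extraction 10.7.3.1, per the labels, and the authors also deposited 1 table of their own quantile-normalised log2 values (20395 probes), used as an alternative. Here, processed signals were set to at least 1, uneven and outlier spots were left missing, log2 values were quantile-normalised, and spots of a probe were averaged. Of 41012 probes, 30538 were kept: at or above the 20th percentile and above background in 75% or more of the arrays of any group, with a coefficient of variation above 2.5%. RefSeq target accessions named 16815 probes and symbols in the authors' own file 2502 more, and 21695 have no symbol here. Limma 3.58.1 (R 4.3.3) was fitted with the 11 group means (33 residual degrees of freedom) and Benjamini-Hochberg adjustment.

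A fold written "at least" sets the brighter group's mean against, per array of the dimmer group, the higher of the lowest signal well above background and the probe's own signal. Such folds apply where no array of the dimmer group was well above background. They are bounds within this processing only, and each was smaller with the normexp correction. Of the spots on the core arrays, 62.5% to 73.6% were well above background, and array number limits the precision. The members, gene lists and named genes were chosen with earlier results of these data known. Named were the 15 largest increases and decreases among called genes whose core arrays did not overlap, and in each list up to 6 called members in each direction and 3 members without a call. Other genes named from the lists were chosen after their values were seen. The rat number in the labels is shared by core, periinfarct and contralateral arrays of the same animals, which pairs areas but not times. Over 24 such pairs the correlation of deviations from the group means was -0.351 to 0.33 and exceeded 0.1 in 12. Tested on simulated data for the core comparison (30431 probes), the fit called 70% of 100 probes changed by 1.5 and 93% of 100 changed by 3 on the log2 scale, with 11 false calls. The simulated noise was independent between arrays, with 1 SD per probe in all groups, and 200 probes were changed. The real arrays differ in each respect, so that these rates need not hold for them. No 2 arrays were duplicates (highest correlation 0.992). Alternatives covered the scaling, background correction, filters, the authors' table, blocks for slide and pool, and each array left out.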

Additional observations from a re-analysis of the deposited data

Results flagged for a closer look

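For 17 of 268 groups of 4 core arrays (6.3%, where chance gives about 5%) the highest or lowest array stood apart, its gap to the nearest other array being a larger share of the group's range than Dixon's critical value for 4 arrays. In 11 of them this was pool 11 at 3 d. Pool 11 was low for Apoc1 (12.62 beside 13.75 on the nearest array, gap 0.839 of the range), C2 (0.842), RT1-Da (0.832), Cd74 (0.935), Csf1 (0.894), Ccl2 (0.92), Stra6l (0.923), Podnl1 (0.877) and Knstrn (0.85), and high for Bdnf (0.912) and Hmgcs1 (0.888). Pool 9 at 3 d was high for Psmb8 (0.844) and Serpinb2 (0.914), and pool 12 at 3 d was low for Hsp90aa1 (0.867). At 24 h pool 4 was high for Idi1 (0.936), pool 3 was high for Siglec1 (0.932), on arrays where that probe was not well above background, and pool 1 was low for F7 (0.894).

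The change from 24 h to 3 d differed between core and periinfarct area, by the test of the difference, for 30 of 134 named genes (adjusted p by limma 0.0129 to 0.0431). The log2 change in the core minus that in the periinfarct area was 2.34 for Cd68, 1.45 for Trem2, 1.80 for Mrc1, 1.96 for Folr2 and 2.10 for Igf1 among macrophage genes. It was 3.90 for Fabp4, 2.39 for Apoc1 and 1.89 for Abca1 among lipid genes, and 1.24 for Grn and 1.48 for Gusb among lysosomal genes. Complement genes gave 3.29 for C6, 1.92 for Cfd, 1.58 for C2 and 2.58 for C5ar1. The CD8 chains gave 3.56 for Cd8a and 2.85 for Cd8b. For Ncf1 it was 2.24, for Gpx1 1.27, for Casp6 1.48, for Il18 1.59 and for Csf1 1.81. Mesenchymal genes gave 2.34 for Col1a1, 2.70 for Col3a1, 1.64 for Pdgfra and 3.18 for Podnl1, and Pon3 gave 3.64. Hspa1b fell less in the core (1.43). The change was more negative in the core for Nefl (-1.11), Snap25 (-1.08) and Gipr (-2.34). None of the 30 kept its call without pool 9 of the 3 d core (adjusted p 0.0513 to 0.139), while all 30 kept their direction.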

How the results depend on the processing

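The core comparison gave 4346 called probes with 61.4% higher. Scaling to the 75th percentile, keeping outlier spots, the authors' table, no filter, a stricter filter, fitting the 2 groups alone and slide blocks gave 3250 to 4798. The normexp correction, computed on median spot signals with an offset of 50, gave 1372 (75.3% higher), although 9069 probes passed the adjusted p alone against 9806, and no fold minimum gave 9806 (46.8% higher). With the 2 groups fitted alone, 4752 probes passed the adjusted p alone, against 9806 in the main fit. The counts by adjusted p alone for neuronal, cholesterol synthesis, chaperone and DNA synthesis genes are from the main fit only. Called lower with the 2 groups fitted alone were 0 neuronal markers, 4 cholesterol synthesis genes and 8 chaperones, against 1, 5 and 8. Leaving out 1 array gave 3500 to 5687. Pools 3 and 4 left out together gave 4286, and pools 1 and 2 gave 3960, both settings chosen after the data were seen.

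For the difference from contralateral cortex (2928 probes) normexp gave 1313, no fold minimum 4544, and leaving out 1 array 2231 to 4488. The difference from the periinfarct area (1532) became 578 with normexp, 834 with slide as a fixed block, 2676 with no fold minimum and 0 when the 4 groups were fitted alone (4845 at an unadjusted p below 0.05), and ranged from 3 without 3 d core pool 9 to 4279 without 3 d core pool 11. In the periinfarct area (1755) normexp gave 426, fitting the 2 groups alone 793, no fold minimum 4592, and leaving out 1 array 1215 to 2326. Contralateral cortex (0 called) gave 1 when its 2 groups were fitted alone and 0 to 7 with 1 array left out, and sham-operated cortex (0 called) 0 to 2. The shared rat numbers pair areas. With this replicate block 3377 probes differed from contralateral cortex and 2250 from the periinfarct area, and with the pool as a random block the core comparison gave 4334, so that the pairing moved none of these counts by over 1.5 times.

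Of 159 called genes chosen by the naming rule, 100 kept their call in every alternative, 129 kept it or lost it with normexp alone, 139 kept it with any 1 array left out, and none reversed. Dim probes are limited by signal over background. The normexp setting added 50 to each signal, where the median processed signal of the core arrays was 37.3 to 54.8. Adding a constant shrinks log2 changes of dim probes by arithmetic. How much of the differences between settings came from this was not tested.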
